A study of Mus musculus with 48 samples.

Results

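The genes described here encode the PGC-1 coactivators and the nuclear receptors they work with. There are 10 of them among the 27179 genes of the count table: Ppargc1a and Ppargc1b, the receptor genes Ppara, Ppard and Pparg, the oestrogen-related receptor genes Esrra, Esrrb and Esrrg, the muscle gene Perm1 and the corepressor gene Nrip1. They were chosen by name, as a known regulatory set, with earlier results of these data known. All 10 were found, and all 10 passed the low-count filter in every comparison.

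Messenger RNA of 4 muscles of the hind limb was sequenced from male mice of the inbred strain FVB/NJ, either late in gestation (E18.5) or as adults. The soleus of the shank and the vastus intermedius of the thigh were taken as slow-biased muscles, rich in slow fibres. The gastrocnemius of the shank and the vastus lateralis of the thigh were taken as fast-biased muscles. The 8 groups of stage and muscle held 6 libraries each, from 6 animals per stage. The labels name no transgene, deletion or treatment in any group. The adult age is given as postnatal day 56 in the series' design and as 3 to 4 months in the growth protocol. Each library was a whole muscle, in which fibres, vessels, nerve and connective tissue are mixed, so a lower share of a cell type and less RNA per cell cannot be told apart. Counts were summed per gene, so the several transcripts of a gene such as Ppargc1a cannot be told apart either.

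PGC-1 proteins do not bind DNA themselves. They are recruited by nuclear receptors and other factors, and they raise transcription of genes for mitochondria, fatty acid oxidation and blood vessel growth. PPARs bind fatty acid ligands and act with a retinoid X receptor (RXR) partner, mainly on genes of lipid use. The oestrogen-related receptors (ERRs) have no known natural oestrogen ligand and bind a short element as a monomer or dimer, mainly at genes of the respiratory chain and the citric acid cycle. In muscle this network is known for its part in the oxidative capacity of fibres and its response to exercise.

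Total counts ran from 14935541 to 32383982 per library, so 3 counts, the limit that a count of 0 allows, correspond to 0.0926 to 0.201 CPM, for counting error only. CPM are counts scaled to the size of the library. Sizes were scaled by the trimmed mean of M-values (TMM), and the scaling factors of adult libraries (0.528 to 0.927) lay below those of E18.5 libraries (1.21 to 1.53). With plain total-count scaling the median of all genes fell by 0.75 to 1.21 (log2) from E18.5 to adult, against shifts of -0.04 to -0.15 with TMM, so comparisons of the stages depend on the scaling. The vastus intermedius library labelled as adult in collection B was left out because it goes against its label. Its root mean square log2 distance was 0.266 to the E18.5 mean and 1.31 to the adult mean, and it held 8874 CPM of the embryonic myosin gene Myh3. In it, Perm1 stood at 100.03 CPM and Esrrg at 9.46 CPM, within the E18.5 range of the same muscle. The letters A to F name the collections of a stage, which were told apart by the dates in the column names and taken as 1 animal each. In E18.5 collection B the slow myosin gene Myh7 lay in the reverse order of the labels, at 10.5 CPM in the vastus intermedius (41.9 to 2471 in the other 5) and 1158 CPM in the vastus lateralis (37.4 to 177 in the other 5). Collection F was reversed as well, at 41.9 CPM in the vastus intermedius and 139.5 CPM in the vastus lateralis, and was kept. Of 110 values that use the 2 vastus libraries of collection B, 102 kept their call without them, 3 calls were lost and 5 were gained. Values without them stand beside the results below where a call or the size changed. Skeletal fibre genes were abundant in every library, and the summed level of 8 of them was 103410 to 264630 CPM in adults and 9892 to 36502 CPM at E18.5.

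**Figure D1:**
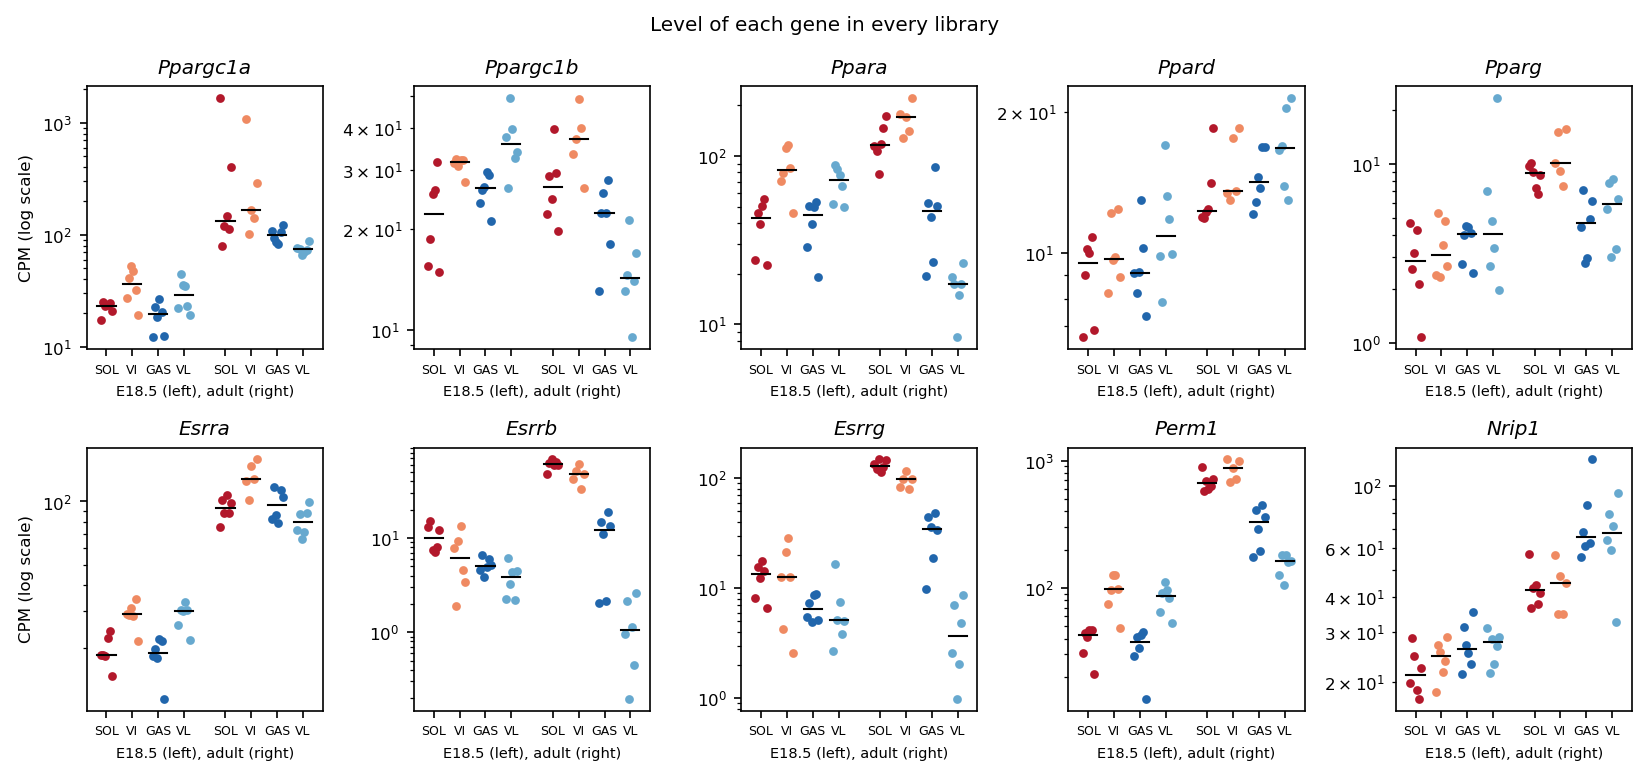
CPM (log axis) of each gene in every library kept, by stage and muscle (SOL soleus, VI vastus intermedius, GAS gastrocnemius, VL vastus lateralis), with the median as a bar. Esrrb, Esrrg, Ppara and Perm1 lie higher in both adult slow-biased muscles than in the adult vastus lateralis, while Ppard stays between 6.63 and 21.4 CPM in all libraries.

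In adults, the slow-biased muscles held more mRNA of most of these genes than the fast-biased muscles, and at E18.5 none of them passed the test between the same muscles. Without the 2 E18.5 vastus libraries of collection B, Esrrb and Esrrg passed there (adjusted p = 0.00452 and 0.012, edgeR). Those 2 libraries were set aside after their Myh7 was seen, and both genes follow Myh7 at E18.5 (r = 0.91 and 0.828). Leaving them out therefore favours a call, so the pass is no independent support. DESeq2 called 1 gene with all 24 libraries. Over the adult muscles 8 of the 10 genes rose and 1 fell in the slow-biased muscles (edgeR's quasi-likelihood test, adjusted p under 0.05), where 66% of the 14304 genes tested were called, 35.9% higher and 30.1% lower. Soleus against gastrocnemius called 7 of the 10 (53.5% of genes), and vastus intermedius against vastus lateralis 9 (52.2%). With total-count scaling the calls over all genes went from 5139 higher and 4302 lower to 8372 and 1981, and the median of all genes from 0.08 to 0.41. The largest log2 differences were those of Esrrb (3.93 ± 0.32, standard error, 15.2-fold), Esrrg (3.27 ± 0.25, 9.66-fold) and Ppara (2.40 ± 0.20, 5.29-fold). Each is the mean of the thigh and shank log2 differences, which were unlike for these genes, as given below. The authors' deposited table of adult slow-biased against fast-biased muscles gave 3.26, 2.71 and 2.23 for them. Nrip1 fell by 0.68 ± 0.15. Ppard did not pass, with a difference of -0.10 and a 95% interval of -0.30 to 0.10. 

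**Figure D2:**
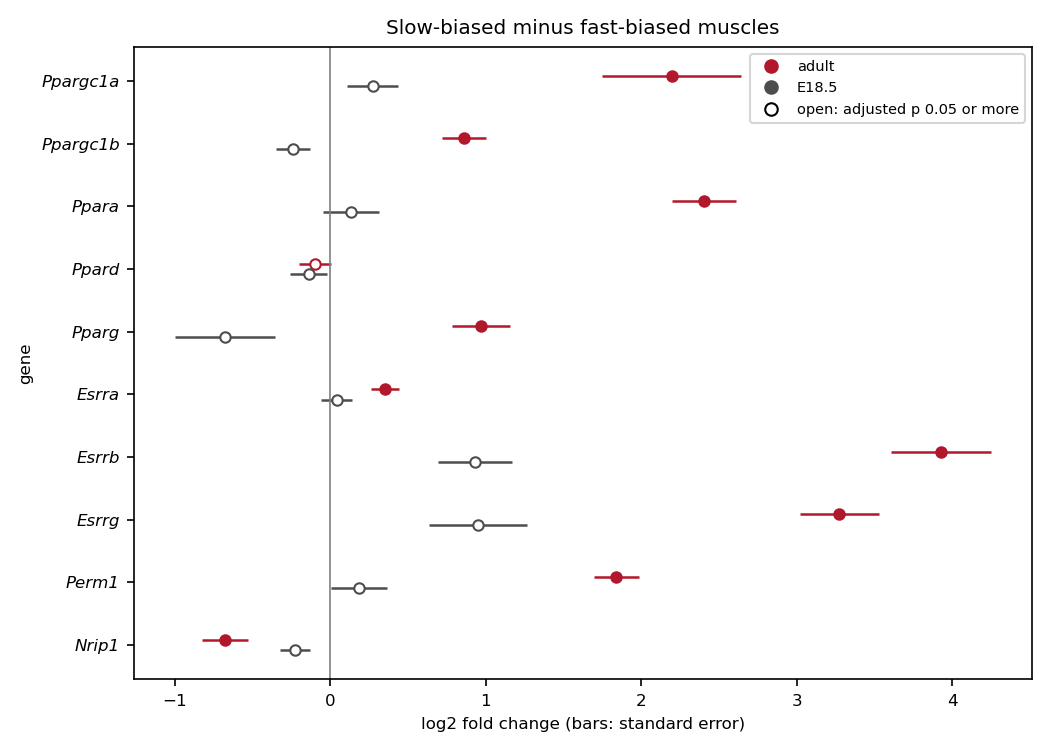
Log2 fold change of slow-biased minus fast-biased muscles for each gene, in adults (red, 23 libraries) and at E18.5 (grey, 24 libraries), with the standard error as a bar. Filled points have an adjusted p under 0.05: 9 of 10 in adults and 0 of 10 at E18.5. At E18.5, 2 pass without the vastus libraries of collection B, which were set aside after their Myh7 was seen.

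Ppargc1a (Entrez Gene 19017, chr5:51454249-52115853, GRCm38.p6) encodes PGC-1α, the coactivator whose transcription in muscle follows contraction, cold and fasting. Its level in the adult soleus was 1661 CPM in collection A, 79.1 in B, 119 in C, 148 in D, 111 in E and 402 in F. The adult vastus intermedius held 1079 CPM in A, 101 in C, 166 in D, 142 in E and 288 in F. The gastrocnemius of the same animals held 83.1, 100.1 and 122 CPM (lowest, median and highest), and the vastus lateralis 65.3, 74.3 and 87.3 CPM. Collection A was highest in both slow-biased muscles and collection F was next in both. Collection F was also highest in both fast-biased muscles, at 122 and 87.3 CPM. In collection B the soleus lay below the gastrocnemius.

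Ppargc1a rose in the adult slow-biased muscles by 2.19 ± 0.45 (log2, adjusted p = 0.000149, edgeR), and without collection A by 1.04 ± 0.24 (adjusted p = 0.000759). Without collection A the value was smaller and the call was kept. Collections A and F were not left out together. Between soleus and gastrocnemius the difference was 2.10 ± 0.62 (adjusted p = 0.00647), or 0.84 ± 0.33 without A (adjusted p = 0.0399). Between vastus intermedius and vastus lateralis it was 2.29 ± 0.64 (adjusted p = 0.00446), or 1.25 ± 0.34 without A (adjusted p = 0.00526). Vegfa, a vessel growth factor gene and a known PGC-1α target, stood at 1552 CPM in the soleus of A and at 356 to 632 CPM in that of the others. In the vastus intermedius Vegfa reached 1723 CPM in A and 552 to 1110 CPM in the others, with the 1110 in F. Both genes were highest in the slow-biased muscles of A, and the part of that collection in the result was not tested.

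**Figure D3:**
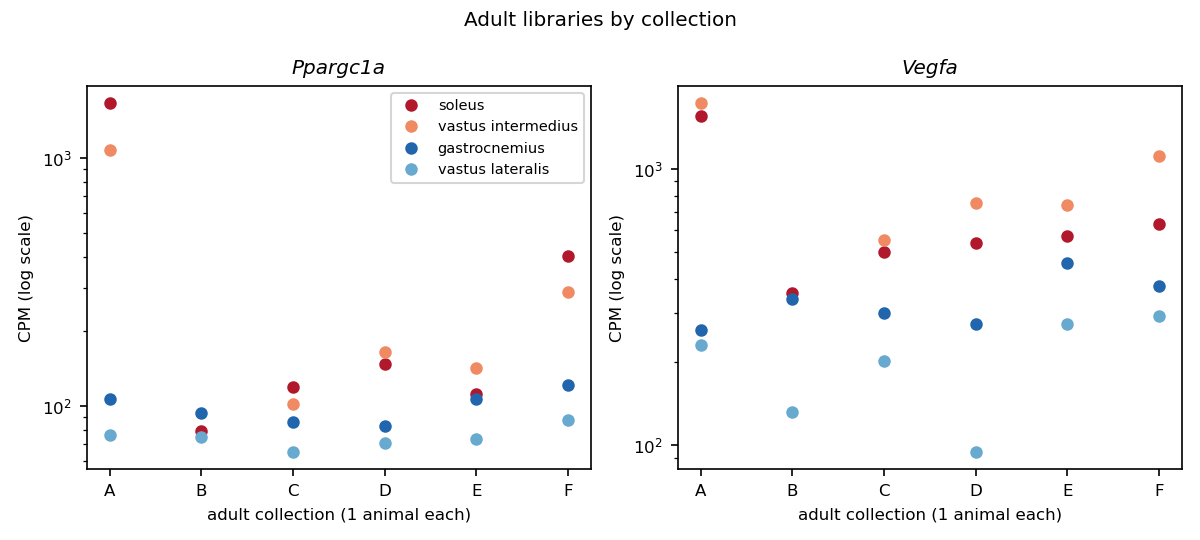
CPM (log axis) of Ppargc1a (left) and Vegfa (right) in the 4 adult muscles of each collection A to F. In collection A the soleus and vastus intermedius reach 1661 and 1079 CPM of Ppargc1a, while the gastrocnemius and vastus lateralis lie between 65.3 and 122 CPM in all collections.

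At E18.5, Ppargc1a stood at 17.5, 23.2 and 25.3 CPM in the soleus (lowest, median, highest) and at 12.2, 19.5 and 26.7 CPM in the gastrocnemius. The vastus intermedius held 19.1, 36.7 and 52.3 CPM and the vastus lateralis 19.3, 28.8 and 44.5 CPM. The slow-biased and fast-biased muscles overlapped in both limb segments. Every adult library lay above every E18.5 library, and the gap falls between the adult vastus lateralis and the E18.5 vastus intermedius. All other neighbours in the order of the 8 medians overlapped. In CPM per kb of the deposited gene length, the group means ran from 2.9 in the E18.5 gastrocnemius to 64.6 in the adult soleus.

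Ppargc1b (Entrez Gene 170826) encodes PGC-1β, a paralogue that is also tied to mitochondrial gene expression. It had a narrower range than Ppargc1a. The adult vastus intermedius held 33.4 CPM in collection A, 37.03 in C, 49.0 in D, 39.9 in E and 26.6 in F, and the adult vastus lateralis 9.51, 14.3 and 21.3 CPM. These thigh muscles did not overlap, and their difference was 1.34 ± 0.20 (log2, adjusted p = 7.21e-06, edgeR). The adult soleus (19.8, 26.7 and 39.7 CPM) and gastrocnemius (13.0, 22.4 and 28.1 CPM) overlapped, with a difference of 0.38 ± 0.19 (adjusted p = 0.1). Over both segments Ppargc1b rose in the slow-biased muscles by 0.86 ± 0.14. The highest E18.5 medians were those of the thigh, at 35.9 CPM in the vastus lateralis and 31.8 CPM in the vastus intermedius, and all neighbours in the order of the 8 groups overlapped. In adults Ppargc1a and Ppargc1b were weakly alike over the 23 libraries, with a Pearson r of 0.31 on log2 CPM.

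Ppara (Entrez Gene 19013, chr15:85734910-85806851) encodes PPARα, the receptor best known for fatty acid oxidation. The adult vastus intermedius held 177 CPM in collection A, 127 in C, 170 in D, 140 in E and 221 in F. The adult vastus lateralis held 8.39, 17.4 and 23.1 CPM, so the 2 thigh muscles lay far apart. The adult soleus held 78.7, 117 and 174 CPM and the gastrocnemius 19.4, 47.1 and 86.4 CPM, where 1 gastrocnemius library, of collection E, lay above the lowest soleus library. The difference was 3.35 ± 0.30 in the thigh (10.2-fold, adjusted p = 6.33e-09) and 1.45 ± 0.28 in the shank (adjusted p = 0.000106, both edgeR). At E18.5 Ppara stood at 82.1 CPM (median) in the vastus intermedius, 72.0 in the vastus lateralis, 44.4 in the gastrocnemius and 42.6 in the soleus. The E18.5 vastus lateralis (49.9 to 88.7 CPM) lay wholly above the adult vastus lateralis.

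Ppard (Entrez Gene 19015, chr17:28232754-28301469) encodes PPARδ, a receptor tied to the endurance phenotype of muscle in experiments that raise its activity. Its level was the most even of the PPAR genes. Adult medians were 12.3 CPM in the soleus, 13.5 in the vastus intermedius, 14.2 in the gastrocnemius and 16.8 in the vastus lateralis, and all neighbours overlapped. E18.5 medians lay between 9.09 and 10.9 CPM. No comparison between muscles of a stage passed for Ppard, although with the collection as a block its adult soleus minus vastus lateralis difference did (-0.31, adjusted p = 0.0196, edgeR). Without the block, the 95% interval of its adult slow to fast difference does not exclude a change of 0.30 (log2) in the direction of the fast muscles. With total-count scaling that difference turned to 0.23 (adjusted p = 0.046).

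Pparg (Entrez Gene 19016, chr6:115360879-115490404) encodes PPARγ, the main regulator of adipocyte differentiation. Its group means were 4.32 CPM per kb in the adult soleus and 5.76 in the adult vastus intermedius, against 4.19 and 4.72 for Ppard and 16.4 and 22.2 for Ppara. The adult soleus held 6.73, 8.82 and 10.1 CPM and the gastrocnemius 2.79, 4.65 and 7.14 CPM. The adult vastus intermedius held 10.1 CPM in collection A, 15.0 in C, 9.06 in D, 7.50 in E and 15.6 in F, against 3.01, 5.97 and 8.24 CPM in the vastus lateralis. The groups overlapped at their edges in both segments, and the adult slow-biased muscles were higher by 0.97 ± 0.19 (adjusted p = 7.84e-05, edgeR).

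PPARγ is abundant in fat cells, so the adipocyte markers stand beside it. Of 7 adipocyte markers, edgeR called 0 in the same adult contrast (0 at an unadjusted p under 0.05, DESeq2 0), with a median difference of -0.23, and their part in the Pparg result was not tested. Their summed level was 2.46 to 90.0 CPM in the adult gastrocnemius, 53.0 to 115 in the soleus, 1.439 to 232 in the vastus intermedius and 19.5 to 490 in the vastus lateralis. The highest E18.5 value of Pparg, 23.3 CPM in the vastus lateralis of collection E, came with 13.3 CPM of Adipoq and 10.5 CPM of Plin1. In the adult vastus intermedius of collection C the brown fat gene Ucp1 stood at 218 CPM and Cidea at 47.1 CPM (both named after their values were seen), and Pparg was 15.0 CPM there. Cidea also passed over the adult slow-biased muscles (4.02, log2), and it stood at 2.96 to 5.76 CPM in the other 4 vastus intermedius libraries. High Pparg and high fat markers did not always go together. The highest adult Pparg, 15.6 CPM in the vastus intermedius of collection F, came with an adipocyte sum of 9.71 CPM. The vastus lateralis of D and B had sums of 490 and 339 CPM, and Pparg reached at most 8.24 CPM in that muscle.

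Esrra (Entrez Gene 26379, chr19:6910977-6922048) encodes ERRα, the ERR that PGC-1α is best known to coactivate. It was the ERR gene with the highest level per length in all adult muscles, with means of 58.9 CPM per kb in the vastus intermedius, 43.4 in the gastrocnemius, 41.6 in the soleus and 36.1 in the vastus lateralis. In the adult vastus intermedius Esrra stood at 125 CPM in collection A, 101 in C, 148 in D, 128 in E and 159 in F. The vastus lateralis held 66.5, 80.0 and 99.5 CPM, just below that range, and the difference was 0.73 ± 0.13 (adjusted p = 4.17e-05, edgeR). The soleus (75.2, 93.5 and 107 CPM) and the gastrocnemius (79.3, 95.9 and 117 CPM) overlapped, with a difference of -0.03 and an adjusted p of 0.85. With total-count scaling that difference was 0.35 (adjusted p = 0.0288). Over both segments Esrra was 0.35 ± 0.09 higher in slow-biased muscles (adjusted p = 0.00126), a call lost when the left-out library is included (0.24, adjusted p = 0.178).

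Esrrb (Entrez Gene 26380, chr12:86361117-86521628) encodes ERRβ, a receptor also known from stem cells and the inner ear. The adult soleus held 47.5, 61.2 and 68.2 CPM of Esrrb. The adult vastus intermedius held 42.4 CPM in collection A, 51.6 in C, 61.1 in D, 33.1 in E and 47.3 in F. The gastrocnemius held 2.06 in A, 14.8 in B, 11.1 in C, 2.2 in D, 18.95 in E and 13.5 in F. The vastus lateralis held 0.197, 1.05 and 2.61 CPM, which were 4 to 38 counts. Both slow-biased muscles lay above both fast-biased muscles in all libraries, and the adult vastus lateralis was the lowest of the 8 groups by median.

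Esrrg (Entrez Gene 26381, chr1:187608510-188214885) encodes ERRγ, which is abundant in heart and oxidative muscle. Its order over the adult muscles was that of Esrrb. The adult soleus held 114, 130 and 148 CPM, and the vastus intermedius 82.6 CPM in A, 97.9 in C, 116 in D, 79.3 in E and 99.0 in F. The gastrocnemius held 9.89 CPM in A, 44.6 in B, 35.9 in C, 18.8 in D, 48.4 in E and 33.9 in F, and the vastus lateralis 0.987, 3.68 and 8.63 CPM. The gap between the slow-biased muscles and the gastrocnemius was free of overlap, and the 2 lowest gastrocnemius libraries, A and D, were the same for both genes.

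The thigh pair differed more than the shank pair for these receptors. Esrrb was higher in the vastus intermedius than in the vastus lateralis by 5.30 ± 0.50 (adjusted p = 1.03e-08) and in the soleus than in the gastrocnemius by 2.56 ± 0.40 (adjusted p = 9.57e-06, edgeR). For Esrrg the values were 4.47 ± 0.39 and 2.07 ± 0.33. A test of the difference between the pairs called 6 of the 10 genes, all with the larger difference in the thigh, where 8.1% of genes tested were called and 6.16% called in that direction. Its values were -2.74 ± 0.63 for Esrrb, -2.39 ± 0.49 for Esrrg, -1.90 ± 0.40 for Ppara, -1.36 ± 0.28 for Perm1, -0.96 ± 0.28 for Ppargc1b and -0.76 ± 0.18 for Esrra. With the left-out library included, Ppara alone of the 10 was called, where 1.5% of 14220 genes were called. Between the fast-biased muscles, the adult vastus lateralis minus the gastrocnemius gave -3.09 ± 0.49 for Esrrb, -2.86 ± 0.37 for Esrrg, -1.45 ± 0.28 for Ppara and -1.02 ± 0.20 for Perm1. These 4 of the 10 genes were called, where 5.64% of genes were called and 3.52% were called lower. Between the slow-biased muscles, only Esrra was called, lower in the soleus (-0.51 ± 0.13), where 17.2% of genes were called and 11.6% were called lower, and with the left-out library included Esrra did not pass there (-0.32, adjusted p = 0.396). The Ppargc1b difference of the pairs was not called without adult collection B, C or E.

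A promoter window of Esrrg is shown because it is the only one of the windows searched that holds an element of MEF2, a muscle transcription factor. RefSeq windows of 300 bases, 250 before and 50 after the start, were found for 9 of the 10 genes (16 windows), and both strands were read. Esrrg had 4 windows, and the first is shown. The 250 bases before its start lie at chr1:187608756-187609005 on the plus strand (GRCm38.p6). They fall inside the gene span given above, so the annotated gene begins upstream of this start. The MEF2 element is in capitals and starts 22 bases before the start.
Esrrg: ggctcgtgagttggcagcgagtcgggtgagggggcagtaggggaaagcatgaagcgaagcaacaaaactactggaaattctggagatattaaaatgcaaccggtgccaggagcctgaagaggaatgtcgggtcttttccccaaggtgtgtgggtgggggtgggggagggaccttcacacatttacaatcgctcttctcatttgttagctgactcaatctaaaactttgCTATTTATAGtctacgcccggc
Of the 32851 RefSeq windows, 3.19% hold this element. A match is a description of letters and was not tested as a binding site.

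Perm1 (Entrez Gene 74183, chr4:156203262-156221307) encodes a muscle protein induced by PGC-1 and ERR that acts back on their target genes. It had the highest level of the 10 genes per length in every adult muscle, with means of 223 CPM per kb in the vastus intermedius, 178 in the soleus, 81.4 in the gastrocnemius and 39.9 in the vastus lateralis. The adult vastus intermedius held 1020 CPM in collection A, 678 in C, 877 in D, 711 in E and 1001 in F, and the soleus 576, 661 and 888 CPM. The gastrocnemius held 176, 327 and 447 CPM and the vastus lateralis 105, 162 and 182 CPM. The slow-biased muscles lay wholly above the fast-biased muscles, by 1.84 ± 0.14 (3.58-fold, adjusted p = 7.99e-11, edgeR). The lowest gastrocnemius libraries were A and D (176 and 195 CPM), as for Esrrb and Esrrg.

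The window before the Perm1 start holds the ERR core AAGGTCA, read on the opposite strand as TGACCTT and starting 202 bases before the start. It is the only window of these genes with that core, which 4.72% of all windows hold, and it overlaps the receptor half-site AGGTCA, which 16.3% hold. The 250 bases before the start lie at chr4:156215677-156215926 on the plus strand, with the core in capitals. They fall inside the gene span given above, so the annotated gene begins upstream of this start.
Perm1: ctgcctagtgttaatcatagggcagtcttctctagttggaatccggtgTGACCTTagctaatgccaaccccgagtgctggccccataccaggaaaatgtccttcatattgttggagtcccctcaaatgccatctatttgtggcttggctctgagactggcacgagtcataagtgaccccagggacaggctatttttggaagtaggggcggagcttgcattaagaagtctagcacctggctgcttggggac
The longer ERR element TCAAGGTCA (0.423% of windows) and the direct repeat of the half-site with 1 base between its copies (DR1, 0.0396%) were in none of the 16 windows, which says only that these letters are not there. The half-site AGGTCA was also in the first and second Pparg windows, starting 28 and 9 bases before the start.

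Nrip1 (Entrez Gene 268903, chr16:76287403-76373827) encodes RIP140, a corepressor of these receptors that is known to restrain oxidative genes in muscle and fat. It was the 1 gene of the set that was lower in adult slow-biased muscles. The adult soleus held 36.7, 42.4 and 57.0 CPM and the vastus intermedius 56.8 CPM in A, 34.9 in C, 47.6 in D, 34.95 in E and 45.1 in F. The gastrocnemius held 55.6, 65.4 and 124 CPM and the vastus lateralis 32.6, 67.9 and 94.5 CPM. The groups overlapped in both segments, and the differences were -0.78 ± 0.21 in the shank (adjusted p = 0.00264) and -0.57 ± 0.22 in the thigh (adjusted p = 0.03, edgeR). The thigh call was lost without collection B, C, D or F in turn (adjusted p = 0.0705 to 0.0875).

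At E18.5, 5 of the 10 genes differed between the limb segments. The thigh muscles held more of Perm1 (1.28 ± 0.18, log2), Ppara (0.94 ± 0.18), Ppargc1a (0.67 ± 0.16), Esrra (0.58 ± 0.10) and Ppargc1b (0.48 ± 0.11) than the shank muscles. These 5 of 10 genes were called by edgeR, all higher, where 24.8% of the 15751 genes tested were called and 14.1% were called higher. Without the vastus libraries of collection B there were 5 as well. With total-count scaling the calls over all genes went from 2217 higher and 1692 lower to 1364 and 5697, the 5 genes were called as before, and Esrrb was also called, lower in the thigh (-0.72). Perm1 stood at 48.3, 97.1 and 127 CPM in the vastus intermedius and 52.9, 86.7 and 111 CPM in the vastus lateralis, against 20.99, 42.6 and 46.4 CPM in the soleus and 13.5, 37.5 and 45.1 CPM in the gastrocnemius. The thigh and shank ranges of Perm1 did not overlap. Of 8 skeletal fibre genes 7 were also called higher in the thigh (median 0.59), with summed levels of 20588 to 36502 CPM against 9892 to 25942 CPM in the shank, and their part in the result was not tested. Collection F was lowest of the 6 in all 4 muscles for Perm1, Ppara and Esrra, and its summed fibre level was lowest in all 4 as well.

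In adults other members differed between thigh and shank. Esrrb (-1.72 ± 0.32, adjusted p = 0.00047) and Esrrg (-1.66 ± 0.25, adjusted p = 5.47e-05) were lower in the adult thigh, and the other 8 did not pass (edgeR, 19.1% of genes called, 7.55% lower). The vastus lateralis was low for both (medians 1.05 and 3.68 CPM), and soleus minus vastus intermedius was called for neither. The vastus intermedius medians (47.3 and 97.9 CPM) lay above those of the gastrocnemius (12.3 and 34.9 CPM). The authors' deposited DESeq2 table of adult thigh against shank gave -0.66 for Esrrb (adjusted p = 0.688) and -0.83 for Esrrg (adjusted p = 0.542). The values here weigh both muscles of a segment equally on the log2 scale, so the low vastus lateralis counts as much as the vastus intermedius. How the deposited table weighs the muscles is not given, so these values are not like for like. With total-count scaling 4 of the 10 were called, where 24.1% of genes were called, 518 higher and 2927 lower, against 1656 and 1080 with TMM.

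Between slow-biased and fast-biased muscles at E18.5, edgeR called 0 of the 10 genes, where 0.368% of 15751 genes were called. At an unadjusted p under 0.05 there were 5, a threshold at which all genes were not counted, so that count has no background. DESeq2 called 1. The largest differences were those of Esrrg (0.95 ± 0.32, adjusted p = 0.188) and Esrrb (0.93 ± 0.24, adjusted p = 0.0833). Esrrb stood at 7.13, 10.1 and 15.2 CPM in the soleus, 1.92, 6.20 and 13.4 in the vastus intermedius, 3.81, 5.02 and 6.62 in the gastrocnemius and 2.22, 3.82 and 6.07 in the vastus lateralis. The soleus lay above the gastrocnemius without overlap, and the thigh muscles overlapped. In the authors' deposited DESeq2 table of slow-biased against fast-biased muscles at E18.5, Esrrb had a log2 fold change of 0.95 with an adjusted p of 0.0319. Esrrg had 0.95 with 0.174 there.

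Leaving out the 2 vastus libraries of collection B, which were picked for their Myh7, moved both calls. Without them Esrrb differed by 1.12 ± 0.21 (adjusted p = 0.00452) and Esrrg by 1.29 ± 0.27 (adjusted p = 0.012, edgeR), and 2 of the 10 genes were called, where 405 of 15863 genes (2.55%) were called. The same 2 libraries held Esrrb at 1.92 CPM (vastus intermedius) and 6.07 CPM (vastus lateralis), and Esrrg at 4.26 and 16.5 CPM, in the same reverse order as Myh7.

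Esrrb and Esrrg followed Myh7 from library to library at E18.5. Over the 24 E18.5 libraries the Pearson r of log2 levels with Myh7 was 0.91 for Esrrb and 0.828 for Esrrg, and between -0.506 and 0.0822 for the other 8 genes. As deviations from the muscle means, r was 0.908 and 0.843, against -0.423 to 0.375 for the other 8. Without the 2 vastus libraries of collection B, the deviations gave 0.861 and 0.827 over 22 libraries. In the vastus intermedius Myh7 stood at 2471, 1645, 1077, 575, 41.9 and 10.5 CPM in collections D, C, A, E, F and B, and Esrrb fell in the same order from 13.4 to 1.92 CPM. These values share a library, its depth and its dissection, so r is a description of likeness and carries no test. In the adult gastrocnemius, collections A and D held 28.4 and 15.2 CPM of Myh7 against 721 to 1467 in the others, and the same 2 libraries were lowest for Esrrb, Esrrg and Perm1.

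**Figure D4:**
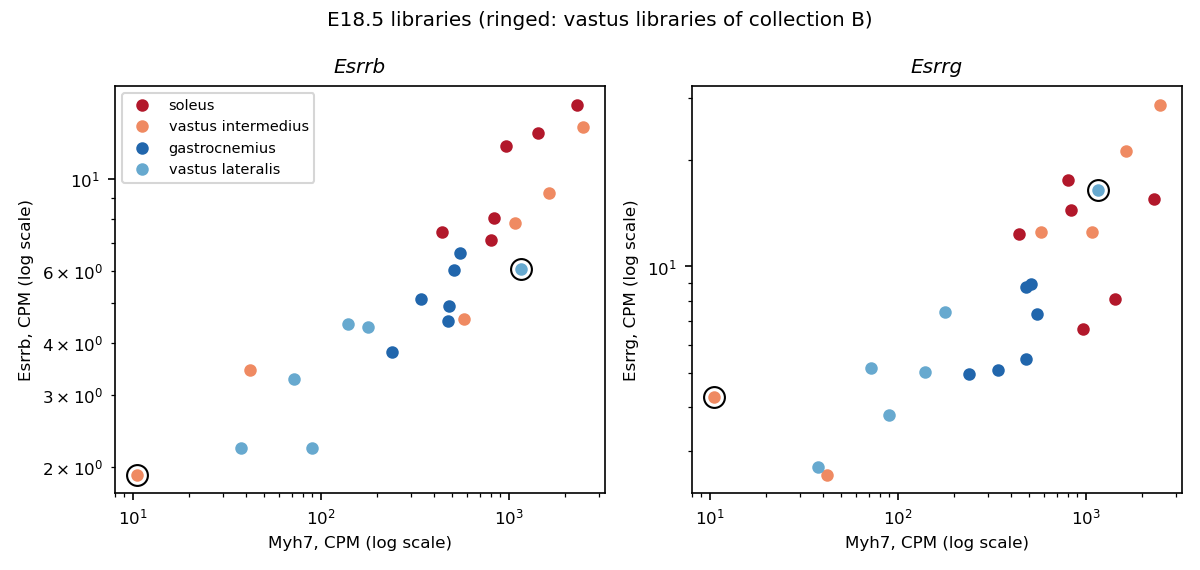
CPM of Esrrb (left) and Esrrg (right) against CPM of Myh7 in the 24 E18.5 libraries, both axes log, coloured by muscle, with the vastus libraries of collection B ringed. Both genes are higher where Myh7 is higher (r = 0.91 and 0.828), also at the ringed points.

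From E18.5 to adult, Ppargc1a, Esrra and Perm1 rose in all 4 muscles with TMM scaling, and Perm1 in the vastus lateralis turned to -0.20 with total-count scaling. In the soleus 9 of 10 genes were called, all higher, where 76% of genes were called and 36.3% higher. In the gastrocnemius 7 were called, all higher (82.2% of genes called, 38.2% higher), and in the vastus intermedius 9, all higher (76.1% and 36.9%). In the vastus lateralis 5 were higher and 3 lower, where 79% of genes were called, 36.4% higher and 42.6% lower. With total-count scaling the soleus calls over all genes went from 5400 higher and 5895 lower to 2812 and 9222, the gastrocnemius calls from 5601 and 6451 to 2372 and 10649, the vastus intermedius calls from 5496 and 5834 to 2601 and 9561, and the vastus lateralis calls from 5285 and 6194 to 2077 and 10410. The share of members called in either direction is near that of all genes, so that count is no result about them. The share called higher lay above that of all genes in the soleus, gastrocnemius and vastus intermedius. The members were chosen with earlier results known, and some of these directions turned with total-count scaling, as given below. Over soleus, gastrocnemius, vastus intermedius and vastus lateralis in turn, Ppargc1a rose by 4.18 ± 0.70, 2.37 ± 0.18, 3.30 ± 0.56 and 1.30 ± 0.18 (log2). In the fits without the E18.5 vastus libraries of collection B, 9 members were called in the vastus intermedius and 8 in the vastus lateralis, as with them. Without adult collection A the rise of Ppargc1a was 2.92 ± 0.34 in the soleus and 2.27 ± 0.30 in the vastus intermedius. Esrra rose by 2.24 ± 0.12, 2.36 ± 0.15, 2.21 ± 0.13 and 1.47 ± 0.12, and every adult library of Esrra lay above every E18.5 library. Perm1 rose by 4.13 ± 0.20, 3.16 ± 0.29, 3.19 ± 0.23 and 0.85 ± 0.17. All 8 skeletal fibre genes rose in each muscle. Of 6 fibroblast markers 4 fell and 2 rose in each muscle, and their summed median went from 12031 to 2365 CPM in the soleus. Of 3 satellite cell markers 2 fell in the soleus and 3 in each of the other muscles, and their summed median in the soleus went from 57.2 to 15.2 CPM. The part of fibres and of these cells in the changes was not tested.

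The vastus lateralis stood apart in direction. There Ppara fell by 2.09 ± 0.21 (adjusted p = 2.82e-07), Esrrb by 1.63 ± 0.48 (adjusted p = 0.00606) and Ppargc1b by 1.31 ± 0.18 (adjusted p = 6.98e-06, edgeR). In the soleus Ppara rose by 1.62 ± 0.23 and Esrrb by 2.50 ± 0.19, and in the vastus intermedius by 0.99 ± 0.21 and 2.83 ± 0.38. In the gastrocnemius Ppara did not pass (0.17 ± 0.32, and -0.91 with total-count scaling), and Esrrb was 0.98 ± 0.42 higher (adjusted p = 0.0427, and -0.11 with total-count scaling), a call that DESeq2, upper-quartile scaling and 9 fits with 1 collection left out did not make. Esrrg rose by 3.38 ± 0.21 in the soleus, 2.82 ± 0.47 in the vastus intermedius and 2.21 ± 0.31 in the gastrocnemius, and its difference in the vastus lateralis was -0.66 ± 0.51 (adjusted p = 0.243), or -0.19 without the E18.5 library of collection B.

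Nrip1 rose by 0.96 ± 0.14, 1.444 ± 0.184, 0.88 ± 0.15 and 1.30 ± 0.19 in soleus, gastrocnemius, vastus intermedius and vastus lateralis. Ppard rose by 0.52 to 0.59 in the 4 muscles with TMM scaling and was -0.11 to -0.52 with total-count scaling, so its direction rests on the scaling. Pparg rose in the soleus (1.502 ± 0.276) and the vastus intermedius (1.73 ± 0.27) and did not pass in the gastrocnemius (0.33 ± 0.24, and -0.76 with total-count scaling) or the vastus lateralis (-0.38 ± 0.53). In the vastus lateralis its median went from 4.07 CPM at E18.5 to 5.97 CPM, and the E18.5 library of collection E stood at 23.3 CPM. Ppargc1b passed only in the vastus lateralis among the 4 muscles, and in the vastus intermedius it was 0.27 ± 0.12 with TMM and -0.49 with total-count scaling.

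**Figure D5:**
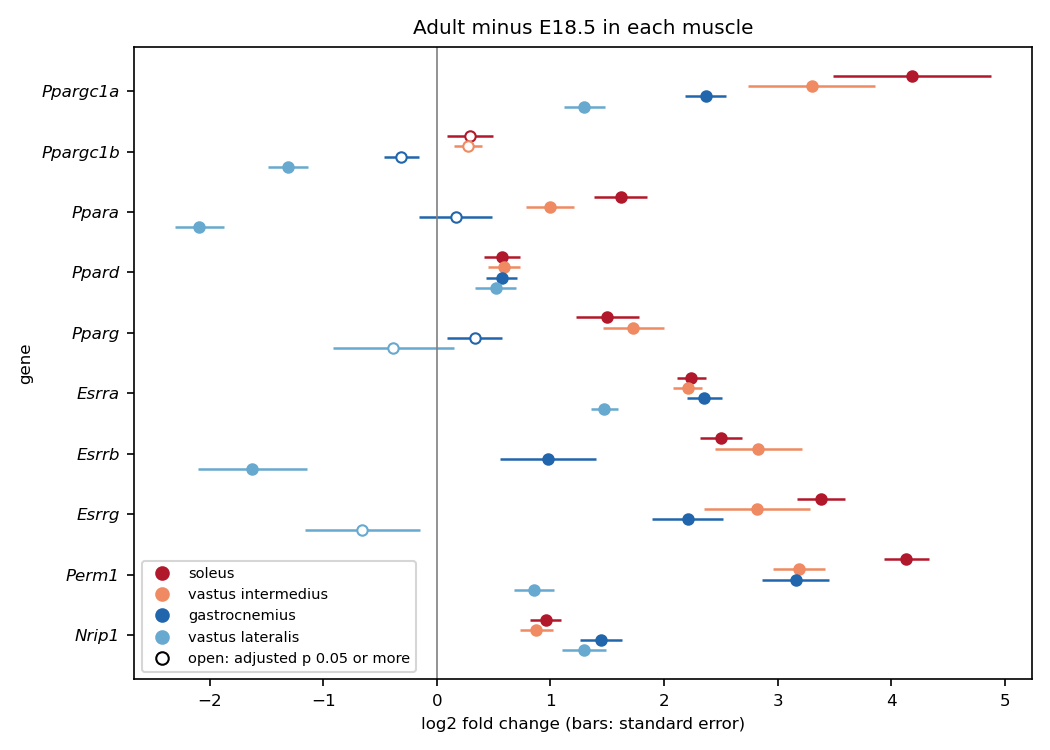
Log2 fold change of adult minus E18.5 for each gene in the 4 muscles, with the standard error as a bar and open points for an adjusted p of 0.05 or more. The vastus lateralis (light blue) lies lowest for 9 of the genes, and below 0 for Ppargc1b, Ppara, Pparg, Esrrb and Esrrg. For Pparg the median of that muscle rose, from 4.07 to 5.97 CPM, with 1 E18.5 library at 23.3 CPM.

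The slow to fast difference itself differed between the stages. In a fit of all 47 libraries, the adult difference exceeded the E18.5 difference by 2.97 ± 0.40 for Esrrb, 2.29 ± 0.42 for Esrrg, 2.24 ± 0.28 for Ppara, 1.89 ± 0.48 for Ppargc1a, 1.63 ± 0.24 for Perm1, 1.61 ± 0.39 for Pparg and 1.07 ± 0.18 for Ppargc1b (log2). For Nrip1 it was -0.48 ± 0.18. These 8 of 10 genes were called by edgeR, where 50.8% of 16402 genes were called, 26.6% higher and 24.2% lower. Ppargc1a without adult collection A gave 0.78 ± 0.29 (adjusted p = 0.0265, edgeR). The Pparg value includes the E18.5 vastus lateralis library of collection E, at 23.3 CPM (next 7.05). Esrra gave 0.28 ± 0.14 (adjusted p = 0.0824), and 0.30 ± 0.08 (adjusted p = 0.00285) with the collection as a block. Without the E18.5 vastus libraries of collection B, Esrrg gave 1.957, and the same 8 genes were called. With total-count scaling the calls over all genes went from 4369 higher and 3967 lower to 8037 and 1611.

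The genes closest to each member over the 23 adult libraries were found by the Pearson r of log2 CPM, where all libraries share the muscle differences. Ppara and Perm1 were close to each other (r = 0.976), and both were close to Vopp1 (0.973 and 0.979). Esrrb was closest to Khdrbs3 (0.991), Actn2 (0.989) and Ldhb (0.989), and Esrrg to Ldhb (0.991). Ldhb encodes the heart form of lactate dehydrogenase and Actn2 a Z-disc actinin. Esrra was closest to Sirt3 (0.944), Coq9 (0.944) and Uqcrfs1 (0.941), a mitochondrial deacetylase, a coenzyme Q factor and a subunit of respiratory complex III. Ppargc1a was closest to Slc38a2 (0.922), Lyset (0.922) and Rragc (0.914), with the 2 high libraries of collection A among the points. The closest gene was at 0.886 (Dhrs11) for Ppargc1b, 0.859 (Pfkl) for Pparg, 0.777 (Ptpn1) for Nrip1 and 0.683 (Ppa1) for Ppard.

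Target genes of the receptors were described from 2 lists. Of 28 ERR and PGC-1 target genes of oxidative metabolism, 23 were higher and 1 lower in adult slow-biased muscles (median 0.43 against 0.08 for all genes, of which 35.9% were higher and 30.1% lower). They included Ldhb (4.24 ± 0.36), Vegfa (1.68 ± 0.23), the mitochondrial creatine kinase gene Ckmt2 (1.65 ± 0.17) and Etfdh (1.34 ± 0.10), while Idh3a, of the citric acid cycle, fell by 0.60 ± 0.07. The respiratory genes Cox7a1 (0.41 ± 0.11) and Cycs (0.19 ± 0.07) moved little. Of 26 PPAR target genes of fatty acid use, 22 were higher and 1 lower (median 1.12). They included the thioesterase gene Acot1 (4.27 ± 0.40), the lipid droplet gene Plin5 (2.91 ± 0.28), the lipase gene Lpl (2.88 ± 0.21), the fatty acid binding protein gene Fabp3 (2.63 ± 0.26) and Pdk4, a kinase that limits glucose oxidation (2.35 ± 0.36), while Ucp3 fell by 1.08 ± 0.27. Cpt1b, which admits fatty acids to mitochondria, was 0.89 ± 0.21 higher, and Angptl4 did not pass (0.57 ± 0.43, adjusted p = 0.25). In the same comparison 8 of 8 endothelial markers (median 0.78), 6 of 6 leukocyte markers (0.94), 5 of 5 pericyte and smooth muscle markers (0.97), 5 of 5 Schwann cell markers (1.19), 3 of 3 satellite cell markers (1.15) and 4 of 6 fibroblast markers (0.43) were higher. Beside them, 7 of 8 skeletal fibre genes were lower (median -0.67), and their part in these results was not tested.

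At E18.5, edgeR called 0 of the 28 and 0 of the 26 target genes between slow-biased and fast-biased muscles. At an unadjusted p under 0.05, where all genes were not counted, there were 4 and 5, and DESeq2 called 0 and 2. Between thigh and shank at E18.5, 26 of the 28 were higher and 0 lower (median 0.64), and 13 of the 26 were higher and 1 lower (median 0.47), beside the fibre genes described above and 14.1% of all genes called higher. With age all 28 ERR and PGC-1 targets rose in the soleus, gastrocnemius and vastus intermedius. In the vastus lateralis 26 rose and Ldhb fell by 1.23 ± 0.41. Of the PPAR targets tested, 25 of 26 rose and 1 fell in the soleus, 20 of 25 rose and 2 fell in the gastrocnemius, 23 of 26 rose and 1 fell in the vastus intermedius, and 16 of 26 rose and 2 fell in the vastus lateralis. Of all genes 36.3% to 38.2% rose in the 4 muscles. Acot1 rose by 1.74 ± 0.18 in the soleus and was 1 of the 2 PPAR targets that fell in the vastus lateralis, by 3.66 ± 0.47. Pdk4 was lowest in adult collection F in all 4 muscles, at 363 CPM in the soleus (1007 to 2314 in the others) and 366 CPM in the vastus intermedius (1598 to 2338 in the others). In the fast-biased muscles it lay closer to the next library, at 153 CPM in the gastrocnemius (171 to 867 in the others) and 78.6 CPM in the vastus lateralis (98.3 to 437 in the others).

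The partners and upstream factors were described from 3 further lists, whose shares of called genes, 9 of 15, 7 of 13 and 15 of 21, lie near the 66% of all genes called in adult slow-biased against fast-biased muscle. Of 15 RXR partners and coregulators, 3 were higher and 6 lower in adult slow-biased muscles (median -0.13). The receptor partner genes Rxrg (-1.88 ± 0.11) and Rxra (-1.21 ± 0.08) were lower there and the coactivator gene Ncoa3 was higher (0.95 ± 0.09). Lpin1, which encodes a PGC-1α partner and phosphatidate phosphatase, did not pass between the muscles and rose with age by 5.09 to 5.78. Pprc1, the remaining PGC-1 family gene, was lower in adults in all 4 muscles (-0.61 to -0.78). Of 13 nuclear respiratory and mitochondrial transcription factors, 1 was higher (Gabpa, 0.41 ± 0.06) and 6 were lower in adult slow-biased muscles (median -0.16), among them Top1mt (-0.78 ± 0.07) and Tfam (-0.21 ± 0.05). Nrf1 did not pass between the muscles (-0.01 ± 0.07) and was lower in all 4 adult muscles (-0.44 to -0.65), where Tfb2m was higher (1.67 to 2.39). Of 21 genes of calcium, AMP kinase and p38 signalling upstream of PGC-1α, 3 were higher and 12 lower (median -0.30). The AMP kinase subunit genes Prkag3 (-4.10 ± 0.29), Prkab2 (-2.74 ± 0.14) and Prkaa2 (-1.08 ± 0.07) and the calmodulin kinase gene Camk2a (-2.72 ± 0.14) were lower in slow-biased muscles, and Camk4 was higher (1.49 ± 0.41).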

How the data were processed

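Libraries were made from messenger RNA with a Kapa mRNA HyperPrep kit after an RNA integrity number above 7, per the labels' protocols. The submitters' processing notes name STAR 2.7.11, Subread 2.0.6 with featureCounts, Trimmomatic 0.39.0, FastQC 0.11.5, DESeq2 1.44.0 and the build mm10. For the annotation and the strand setting, the sources used here give nothing. The authors deposited raw counts per gene for 48 libraries, and tables of their own comparisons with log2 fold changes and adjusted p-values, from which gene symbols were taken (18780 genes, with 6501 more from RefSeq GRCm38.p6 and 1898 without a symbol). Positions and promoter windows are from RefSeq GRCm38.p6.

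Counts of 47 libraries were tested with edgeR 4.0.16 (R 4.3.3; TMM, filterByExpr, glmQLFit and glmQLFTest, Benjamini-Hochberg over all genes tested, threshold 0.05). Adult comparisons share 1 fit of 23 libraries, E18.5 comparisons 1 fit of 24, each muscle's stage comparison its own fit, and the change with age 1 fit of 47. Standard errors are the log2 fold change over the root of F. Intervals are at 95%, from the normal quantile of the standard error. On simulated counts, 74.7% of genes changed by 1 (log2) were recovered in adult slow-biased minus fast-biased muscles (14083 genes) and 81% at E18.5 (15601 genes). Of 183 genes called in each, 11 in adults and 4 at E18.5 were false calls. Few genes were changed there, equally in both directions, with no shift of composition and no effect of animal. The data differ in this, so these rates may not carry over. Likeness used a prior count of 2.

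The members and lists were chosen with earlier results of these data known. The genes named are all members, a fixed set of pathway genes, up to 4 of each list with the largest called adult slow to fast difference and up to 4 with the largest change with age of the same sign in all muscles, and the 3 genes most like each member. Myh7, Ucp1, Cidea and a few list genes beside these were named after their values were seen. Column names carry no animal number, so libraries with 1 date tag were taken as 1 animal. Deviations of same-collection libraries correlated weakly (mean r 0.0919 in adults, -0.118 to 0.357, and 0.136 at E18.5, -0.136 to 0.373). Between collections the mean r was -0.0186 in adults and -0.0273 at E18.5. No 2 libraries of a group were alike within counting noise (lowest chi-square per degree of freedom 10.23). Alternatives were DESeq2 1.42.0, other scalings, no filter, the collection as a block, each collection left out and the left-out library included. Total-count scaling and the set without the E18.5 vastus libraries of collection B were chosen after seeing the data.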

Additional observations from a re-analysis of the deposited data

Results flagged for a closer look

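In groups of 5 or 6 libraries, 7 of 80 pairs of gene and group had 1 library far from the others by Dixon's 95% limit, where chance gives about 1 in 20. These were Ppargc1a in collection A of the adult soleus (1661 CPM, next 402) and of the adult vastus intermedius (1079, next 288), Nrip1 in the soleus of the same collection (57.0, next 44.1), Ppard in the adult soleus of collection F (18.4, next 14.1), and at E18.5 Ppargc1b in the vastus intermedius of F (lowest, 27.5, next 30.9), Pparg in the vastus lateralis of E (23.3, next 7.05) and Esrrg in the vastus lateralis of B (16.5, next 7.45). The Pparg library also held the adipocyte genes Adipoq and Plin1, and the Esrrg library held 1158 CPM of Myh7.

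The slow to fast difference differed between adult and E18.5 muscles in a test of the difference itself (log2) for Esrrb (2.97), Esrrg (2.29), Ppara (2.24), Ppargc1a (1.89), Perm1 (1.63), Pparg (1.61), Ppargc1b (1.07) and Nrip1 (-0.48). The adult shank pair differed from the adult thigh pair for Esrrb (-2.74), Esrrg (-2.39), Ppara (-1.90), Perm1 (-1.36), Ppargc1b (-0.96) and Esrra (-0.76).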

How the results depend on the processing

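Each of the 10 genes was tested again in every comparison, and calls are at an adjusted p of 0.05. With DESeq2 215 of 220 values kept their call, with RLE size factors 219, with upper-quartile scaling 216 and with no filter on low counts 217. With collections left out in turn 1547 of 1610 did so, and no called value changed sign. Values called in neither fit changed sign in 32 of these cases, in 2 with upper-quartile scaling, in 2 with the collection as a block, in 4 with the library left out included and in 1 without the E18.5 vastus libraries of collection B. With total-count scaling, chosen after seeing the data, 185 of 220 did so, 12 values called in neither fit changed sign, and 11 others turned sign: Ppard in adult slow minus fast (0.23) and with age in soleus (-0.11), gastrocnemius (-0.52), vastus intermedius (-0.17) and vastus lateralis (-0.52), Esrra in soleus minus gastrocnemius (0.35), and with age Ppara (-0.91), Pparg (-0.76) and Esrrb (-0.11) in the gastrocnemius, Ppargc1b in the vastus intermedius (-0.49) and Perm1 in the vastus lateralis (-0.20). The median of all genes moved with age under that scaling to -0.75, -1.21, -0.80 and -1.20 in soleus, gastrocnemius, vastus intermedius and vastus lateralis. Members called in adult thigh minus shank went from 2 to 4 under it. With the library left out included, the calls on the difference of the muscle pairs went from 6 to 1. Members called in E18.5 slow minus fast went from 0 to 2 without the vastus libraries of collection B and to 1 with DESeq2, and ranged from 0 to 2 with 1 collection left out. Over all genes that comparison called 58, 212 with the collection as a block, 273 with DESeq2 and 405 without the vastus libraries of collection B. The causes were not tested.

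With the replicate block (collection, 180 values) 174 were as before. It ended the call of Ppargc1a in adult vastus intermedius minus gastrocnemius (1.09, adjusted p = 0.0518, edgeR) and made those of Ppargc1a in E18.5 soleus minus vastus intermedius (-0.62) and vastus lateralis minus gastrocnemius (0.64), of Ppard (-0.31) and Esrra (0.23) in adult soleus minus vastus lateralis, and of Esrra in the change with age (0.30). The main fits took the 4 muscles of a collection as independent libraries, although E18.5 collection F was lowest in all 4 for Perm1, Ppara and Esrra. The date tags alone pair the libraries, so a call made or lost under the block is not read as a stronger or weaker effect. Of calls lost with collections left out, Nrip1's change with age was lost without adult C, D or F or E18.5 B (adjusted p = 0.0519 to 0.172), and Esrrb's rise in the gastrocnemius in 9 of these fits (0.0547 to 0.121). Depth limits Esrrb in the adult vastus lateralis, which rests on 4 to 38 counts.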
